A study of Mus musculus with 8 samples.

Results

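Apolipoproteins are the proteins that carry lipids through the blood, and the liver is the main source of most of them. The data examined here are those of 10 apolipoprotein genes (Apoa1, Apoa2, Apoa4, Apoa5, Apob, Apoc1, Apoc3, Apoe, Apoh and Apom), found by symbol among the 24539 entries of the RNA-seq tables and the 25033 of the Ribo-seq tables, and all 10 were listed in both assays. The livers came from C57BL/6 mice put on a diet with 45% of its energy as fat at week 8 and killed at week 25. The HF group had this diet alone. The HB group had the same diet and 2% (w/v) betaine, a methyl donor made from choline, in its drinking water, so that both groups were fat-fed and a lean control was not analysed here. The labels give 25 weeks of diet, although 17 weeks lie between these ages, and describe 6 mice per group with pooled RNA preparations. RNA-seq measured polyadenylated mRNA and Ribo-seq measured ribosome-protected fragments (RPFs), the pieces of mRNA of about the size of a ribosome that survive digestion with RNase. Each assay had 2 libraries per group, called HF1, HF2, HB1 and HB2 here. The study's methods say that individual mice near the mean weight of their group were taken for sequencing, whereas the labels describe pooling, so it is not settled that the libraries of a group are separate animals. The p-values measure the spread between libraries, which may be technical.

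A lipoprotein is a droplet of triglyceride and cholesteryl ester under a coat of phospholipid and apolipoprotein. Apolipoprotein B is built into the particle while it is made in the endoplasmic reticulum and stays with it, whereas the smaller apolipoproteins A, C and E move between particles in plasma. They steer the particle's fate: some activate or block the lipases that unload triglyceride, some are ligands of hepatic receptors, and some form high-density lipoprotein (HDL). In rodents the intestine is a second source of several of these proteins.

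The question asked of these genes was whether mice given betaine differed from mice on the fat diet alone in mRNA, in RPF, and in their ratio, the translation efficiency (TE). Around the start codon, the bases that most affect recognition by the ribosome are a purine at position -3 and a G directly after the ATG. These contexts are shown for the 5 genes whose TE stood at an end of the range or differed most between the groups, taken from the principal GENCODE M21 transcript (GRCm38), with the start codon in capitals. Apob lies at chr12:7977648-8016835 on the plus strand, Apoc3 at chr9:46232933-46235636 on the minus strand, Apoc1 at chr7:19689481-19692660 on the minus strand, Apoa4 at chr9:46240696-46243459 on the plus strand and Apom at chr17:35128997-35132050 on the minus strand. Each printed run is exonic and joins the end of the 5′ leader to the first coding bases.
Apob: catccatccgccATGggccc
Apoc3: tacgtaggtgccATGcagcc
Apoc1: cctccaaccaggATGaggct
Apoa4: gaggagcccaggATGttcct
Apom: tctcatcccgagATGttcca

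Of these 5, Apob was the one with both a purine at -3 and a G after the start codon. All 10 apolipoprotein genes had the purine, as did 84.6% of 20496 principal coding transcripts, and 3 of the 10 (Apoa5, Apob and Apoh) had the G as well, against 41.5% of those transcripts. The coding sequences ran from 88 codons (Apoc1) to 4505 (Apob). Apoa1, Apoc3, Apoa4 and Apoa5 lie side by side on chromosome 9, with gaps of 2466, 5059 and 25173 bases between neighbours, and Apoc1 and Apoe lie 3448 bases apart on chromosome 7. Apoa2 (chromosome 1), Apoh (chromosome 11), Apob and Apom stand alone. Annotated genes on the opposite strand overlap Apoa4 and Apoa5. The strand setting of the counting is not given in the sources used here, so that reads of such partners cannot be told apart from those of these 2 genes.

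Values are RPKM, the reads of a gene divided by its length and by the total of its library. In RNA-seq they can be compared between genes. In Ribo-seq such a comparison is limited, since the lengths were close to whole transcripts and the coding share of the transcript differed between genes. The RNA-seq libraries held 11661207 (HF1), 11824128 (HF2), 22543471 (HB1) and 18082685 (HB2) reads on genes. The Ribo-seq libraries were much shallower and held 387980 (HF1), 1056546 (HF2), 257086 (HB1) and 141890 (HB2). The share of Ribo-seq reads on protein-coding genes was 91.7% and 91.0% in HF1 and HF2 and 86.8% and 80.5% in HB1 and HB2, and scaling to those reads is one of the alternatives. The hepatocyte markers summed to 38710 and 41563 RPKM of mRNA in HF1 and HF2 and to 50322 and 46067 in HB1 and HB2. In bulk liver, fewer cells of a type and less RNA per cell cannot be told apart.

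Apolipoprotein mRNAs were among the most abundant of the liver. In the HF group, 5 of the 10 were among the 10 protein-coding genes with the highest mean mRNA RPKM, with Apoa2 at rank 1, Apoc1 at 2, Apoe at 3, Apoc3 at 6 and Apoa1 at 7 of 14606 genes. In the HB group these 5 genes ranked from 1 (Apoa2) to 9 (Apoc3). Apoh stood at rank 45 in both groups, Apoa5 at 81 (HF) and 84 (HB), Apoa4 at 289 and 124, Apob at 468 and 501, and Apom at 3053 and 1080. In the order of mRNA levels of the HF group, only Apoc1 and Apoe were neighbours whose libraries overlapped. In the HB group the libraries overlapped between Apoa2 and Apoe, between Apoc1 and Apoa1, and between Apoa1 and Apoc3.

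In the order of RPF levels, Apoa2, Apoe and Apoa1 led in both groups. Apoa2 stood at rank 4 of the protein-coding genes in each group. Apob, far down the list by mRNA, stood at rank 30 of 12970 in the HF group and at rank 39 of 10440 in the HB group. Neighbours in this order overlapped in 3 of 9 pairs in the HF group and in 5 of 9 in the HB group, so that much of the RPF order was not separated by the libraries.

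**Figure D1:**
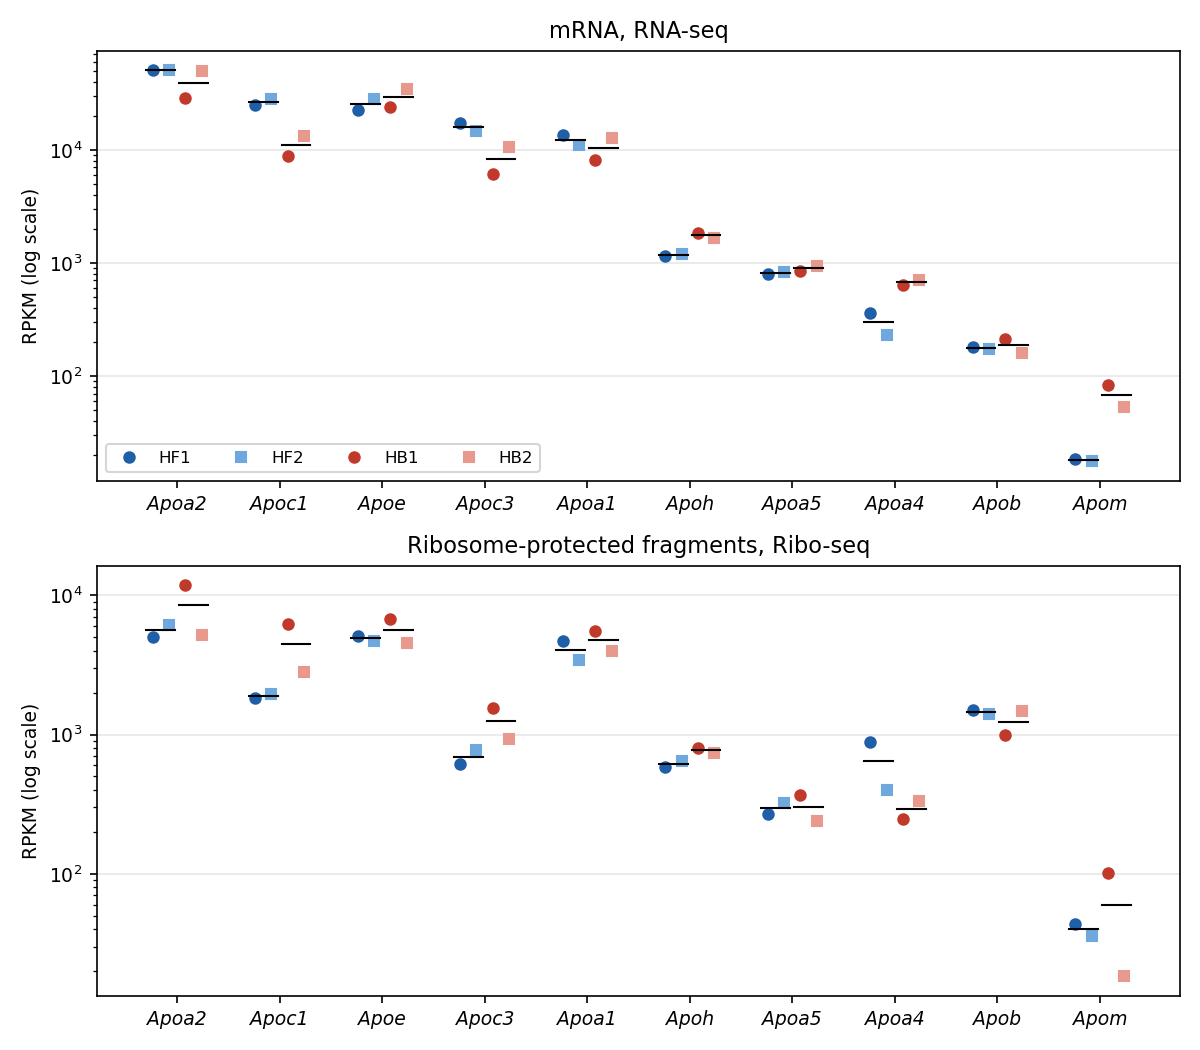
RPKM of the 10 genes in the 4 RNA-seq libraries (upper panel) and the 4 Ribo-seq libraries (lower panel), on a log axis; points are libraries, blue for HF and red for HB, and black bars are group means. Apom and Apoa4 mRNA lie higher in both HB libraries, Apoc1 and Apoc3 mRNA lie lower, and the RPF of the short mRNAs are highest in HB1.

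Together the 10 genes took 20.8% of the summed mRNA RPKM in each of HF1 and HF2, 12.8% in HB1 and 17.8% in HB2. The HB libraries were lower and did not overlap the HF libraries in this share, but HB1 and HB2 differed from each other by more than HB2 differed from HF. As a share of reads, in which long mRNAs weigh more, the values were 8.97% (HF1), 9.48% (HF2), 6.58% (HB1) and 9.56% (HB2), and the groups overlapped. Of the summed RPF RPKM, which short noncoding RNAs enter, they took 1.89% (HF1), 1.58% (HF2), 1.97% (HB1) and 0.77% (HB2), and the groups overlapped. Their share of all RPF reads ranged from 3.51% to 3.89% over the 4 libraries, while of the RPF reads on protein-coding genes they took 4.18% and 3.86% in HF1 and HF2 and 4.48% and 4.51% in HB1 and HB2, higher in both HB libraries. Within the apolipoprotein RPF reads, Apob alone took 54.9%, 56.0% and 56.4% in HF1, HF2 and HB2 but 35.3% in HB1, where the 3 shortest mRNAs (Apoa2, Apoc1 and Apoc3) took 22.6% against 8.55% to 11.2% in the other libraries.

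At the level of mRNA, Apom rose and no other of the 10 genes was called, that is, passed the thresholds of the study, a log2 difference beyond 1 with an unadjusted p under 0.001 (limma on log2(RPKM + 1)). Over all 10687 genes tested, 2.3% passed as higher in HB and 6.56% as lower. None of the 10 passed as lower, although 2 had an unadjusted p under 0.05 in that direction. A count-based fit with voom also called none lower at these thresholds. It gave Apoc1 a log2 difference of -1.28, with an unadjusted p of 0.00104 just over the limit and an adjusted p of 0.012. With a Benjamini-Hochberg adjusted p under 0.05 in place of the unadjusted one, 2 genes were higher (Apom and Apoa4), where 5.01% of all genes were, and 1 was lower (Apoc1), where 12.7% were. With no filter on low values none of these 3 kept an adjusted p under 0.05, at 0.054 for Apom, 0.075 for Apoa4 and 0.29 for Apoc1. Under that setting no gene of the 16758 tested had one, and the lowest was 0.054. Apoc1 also lost it with a common median (0.091), with a crossed block (0.12), without HF1 (log2 difference -1.36) and without HF2 (-1.19). Both HB libraries lay above both HF libraries for 4 of the 10 genes (24.8% of all genes) and below for 3 (43.3% of all genes). The median log2 difference of the 10 genes was 0.10, against -0.19 over all genes tested.

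Apom encodes a lipocalin carried mainly on HDL, where it binds sphingosine 1-phosphate. Its mRNA stood at 18.4 RPKM in HF1 and 17.6 in HF2, and at 82.9 in HB1 and 52.7 in HB2. Both HB libraries were well above both HF libraries. The log2 difference was 1.82 (SE 0.28, limma adjusted p = 0.0053), a 3.54-fold higher level and the 71st highest difference of 10687. Without HB1 it was 1.50 and without HB2 it was 2.14, and Apom passed the thresholds each time a single library was left out. Fits of this kind leave 1 library in a group, which is then assumed to vary like the other group, so they show which library sets a value and not that a call is stable.

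Apoa4, a protein of chylomicrons and HDL that the liver also makes, had 364 RPKM of mRNA in HF1 and 232 in HF2, against 643 in HB1 and 710 in HB2. The HB libraries agreed closely while the HF libraries differed 1.57-fold. The log2 difference was 1.21 (SE 0.30, limma adjusted p = 0.019), which missed the study's threshold of unadjusted p and was the 327th highest of 10687. Without HF2 it was 0.89 with an adjusted p of 0.20. Intestinal epithelium is another strong source of Apoa4, and the intestinal marker list summed to 78.9 and 82.1 RPKM of mRNA in HF1 and HF2 and to 219.8 and 175.9 in HB1 and HB2. Only 1 of its 7 genes passed the filter on low values, Fabp2, the intestinal fatty acid binding protein, and it was called higher. Of the 7, only Cdx2 and Lct were at 0 in all 4 RNA-seq libraries. In RPF the list summed to 112.2 and 155.9 RPKM in HF1 and HF2 and to 88.7 and 204.5 in HB1 and HB2. There 6 of the 7, all but Fabp2, were at 0 in all 4 libraries. The part of such cells in the Apoa4 result was not tested.

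Apoc1 and Apoc3 are small proteins of triglyceride-rich particles and HDL. Apoc3 is known to inhibit lipoprotein lipase and the hepatic uptake of remnants, and Apoc1 inhibits the exchange and uptake of lipoprotein lipid. Apoc1 mRNA had 24881 RPKM in HF1 and 27990 in HF2, against 8869 in HB1 and 13345 in HB2, a log2 difference of -1.28 (SE 0.38, limma adjusted p = 0.035). Apoc3 mRNA had 17365 in HF1 and 14659 in HF2, against 6117 in HB1 and 10517 in HB2, a log2 difference of -0.99 (SE 0.39, adjusted p = 0.086). Both genes were lower in both HB libraries, and in each case HB1 was the lowest of the 4. Without HB2, both passed the study's thresholds, at -1.57 for Apoc1 and -1.38 for Apoc3. Without HB1 they did not, at -0.98 and -0.60.

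The remaining HDL genes differed less. Apoa1, the main protein of HDL and the activator of lecithin-cholesterol acyltransferase, had 13425 and 11044 RPKM of mRNA in HF1 and HF2 and 8069 and 12679 in HB1 and HB2, and the groups overlapped. Its log2 difference was -0.27 with a 95% confidence interval from -1.11 to 0.58. Apoa2, the second protein of HDL, had 50662 and 50601 in HF1 and HF2, 28748 in HB1 and 50267 in HB2. All of its log2 difference of -0.41 came from HB1, and without that library it was -0.010.

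Apoa5, which promotes the lipolysis of triglyceride, had a mRNA level between 804 and 945 RPKM in all 4 libraries, with a log2 difference of 0.14 (95% confidence interval from -0.49 to 0.76). Apob mRNA lay between 161 and 214 RPKM, and its difference of 0.07 had an interval from -0.53 to 0.67. Apoe, the ligand of the LDL receptor and of remnant receptors, had 22520 and 28193 in HF1 and HF2 and 24023 and 34352 in HB1 and HB2, a difference of 0.19 (interval from -0.70 to 1.08). Macrophages also make Apoe. The Kupffer cell and macrophage markers summed to 192 and 242 RPKM of mRNA in HF1 and HF2 and to 325 and 318 in HB1 and HB2. In mRNA 1 of 12 was called higher, where 2.3% of all genes were. In RPF they summed to 337 and 243 in HF1 and HF2 and to 346 and 146 in HB1 and HB2. There 1 of 12 was called lower, where 7.86% of all genes were. The part of macrophages in the Apoe level was not tested. Apoh, a plasma glycoprotein that binds phospholipid, had 1153 and 1206 in HF1 and HF2 and 1841 and 1664 in HB1 and HB2. It was higher in both HB libraries, with a log2 difference of 0.57 (SE 0.29, adjusted p = 0.17) that missed the thresholds.

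At the level of RPF, none of the 10 genes passed the thresholds of the study, a log2 difference beyond 1 with an unadjusted p under 0.05. Over 11190 genes tested with limma, 1.58% passed as higher in HB and 7.86% as lower. None of the 10 had an unadjusted p under 0.05 in either direction. By contrast, voom on the recovered reads called Apoc1 higher (adjusted p = 0.0097) and Apoa4 lower (adjusted p = 0.13), where 3.83% and 6.10% of all genes were. That fit pooled the variance over all genes (22148 degrees of freedom), so the spread of the single gene did not enter. Both HB libraries lay above both HF libraries for 3 genes (9.07% of all genes) and below for 1 (33.2% of all genes). The median log2 difference of the 10 genes was 0.20, against -0.43 over all genes tested.

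Apoc1 RPF stood at 1828 RPKM in HF1 and 1954 in HF2, and at 6165 in HB1 and 2824 in HB2. The groups did not overlap, but the HB libraries differed 2.18-fold from each other. The log2 difference was 1.14 (SE 0.48, limma adjusted p = 0.52). Without HB2 it was 1.70 and passed the thresholds, and without HB1 it was 0.58. With the RPKM of each library scaled to a common sum, which includes the noncoding RNAs, it was 0.27. Apoc3 RPF followed the same order of libraries, with 616 and 769 in HF1 and HF2 against 1550 in HB1 and 936 in HB2, a log2 difference of 0.81 (SE 0.37, adjusted p = 0.55) that the common sum turned to -0.068. Without HB2 it was 1.17 and passed the thresholds, and without HB1 it was 0.44. In the deposited RPKM, both genes thus had higher RPF and lower mRNA values in each HB library than in either HF library.

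Apoa4 RPF stood at 886 RPKM in HF1 and 397 in HF2, and at 247 in HB1 and 334 in HB2. These values rested on 573, 699, 106 and 79 reads. Both HB libraries were lower, but HF2 was nearer to them than to HF1. The log2 difference was -1.04 (SE 0.47, limma adjusted p = 0.54). HF1 set much of its size, since the difference was -0.46 without HF1 and -1.62, past the thresholds, without HF2. The exact Poisson 95% intervals of the HF values, 815 to 962 RPKM in HF1 and 368 to 428 in HF2, did not overlap, so the HF libraries differed by more than counting error. With a common sum the difference was -1.92 and passed the thresholds.

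Apom RPF could not be followed at this depth. It rested on 13 reads in HF1, 29 in HF2, 20 in HB1 and 2 in HB2, or 43.9, 35.9, 101.8 and 18.4 RPKM. The exact Poisson 95% interval of the HB2 value ran from 2.23 to 66.6 RPKM and so covered both HF values, and 3 reads in that library are worth 27.7 RPKM. Intervals and floors of this kind cover counting error only. The log2 difference of 0.14 had a 95% confidence interval from -2.01 to 2.28. It passed the thresholds as lower without HB1, at -1.07, and as higher without HB2, at 1.34.

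The other 6 genes had RPF differences between -0.28 and 0.49 on the log2 scale. Apob, with the most RPF reads of the 10 (2910 to 20774 per library), had 1512 and 1414 RPKM in HF1 and HF2 and 987 and 1475 in HB1 and HB2, and the groups overlapped. Apoa2 had 5041 and 6158 in HF1 and HF2, 11801 in HB1 and 5217 in HB2. Its HB1 value was 2.26 times that of HB2, and without HB1 the log2 difference of 0.49 became -0.095. Apoa1 lay between 3415 and 5524, Apoe between 4523 and 6747 and Apoa5 between 241 and 366, each with HB1 as the highest library and with overlapping groups. Apoh had 582 and 643 in HF1 and HF2 and 800 and 743 in HB1 and HB2. It was the one gene of the 10 that was higher in both HB libraries in mRNA and in RPF, with an RPF log2 difference of 0.33 (95% confidence interval from -0.34 to 1.01).

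**Figure D2:**
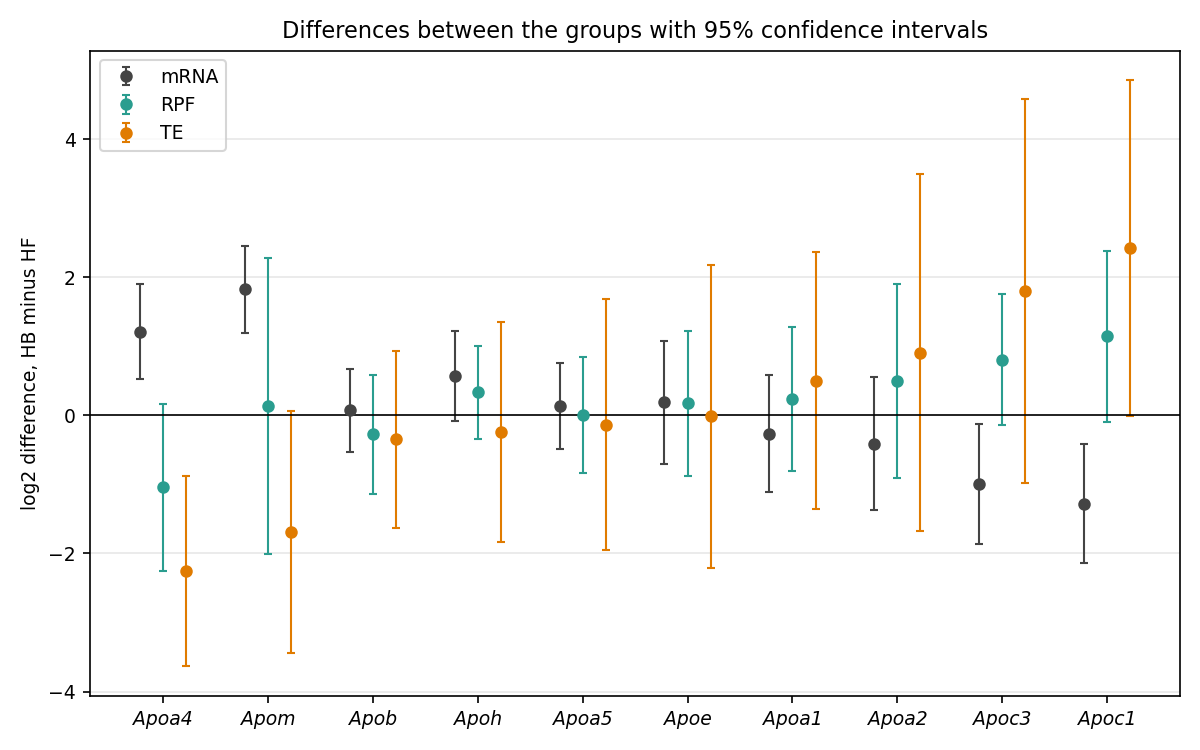
Log2 difference between HB and HF in mRNA (grey), RPF (green) and TE (orange) for the 10 genes, ordered by TE; bars are 95% confidence intervals from limma. The interval excludes 0 for the mRNA of Apoa4, Apom, Apoc1 and Apoc3 and for the TE of Apoa4.

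TE, the ratio of RPF RPKM to mRNA RPKM, differed more between the 10 genes than between the groups. In the HF group the ratio of mean levels was 8.27 for Apob, the 114th highest of 9161 genes, and 0.043 for Apoc3, the 29th lowest. Apom (2.22) and Apoa4 (2.15) were the other 2 genes above the median over all genes, 1.07. Apoh (0.52), Apoa5 (0.36), Apoa1 (0.33), Apoe (0.19), Apoa2 (0.11) and Apoc1 (0.072, the 80th lowest) were below it. In the HB group Apob remained the highest of the 10, at 6.57 and the 86th highest of 8500 genes, and Apoc3 the lowest, at 0.15. All the others were then below the median of 0.96.

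The gene lengths behind the RPKM, recovered from the steps of 1 read, were close to whole transcripts. The coding sequence filled 97.0% of the principal transcript of Apob, 87.2% for Apoh and 76.8% for Apoa1, and 44.0% for Apoa5, 50.2% for Apoc1, 56.6% for Apom and 57.0% for Apoc3. Apob had the highest share and the highest TE of the 10. Apom had a lower share than Apoh and Apoa1 and a higher TE, on 13 RPF reads in HF1 and 29 in HF2. The part of the counted length in the TE levels was not tested. The lengths of Apoc3 (459 in RNA-seq, 527 in Ribo-seq) and Apom (715 and 764) also differed between the assays, which touches the level of their TE but not the comparison of groups.

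**Figure D3:**
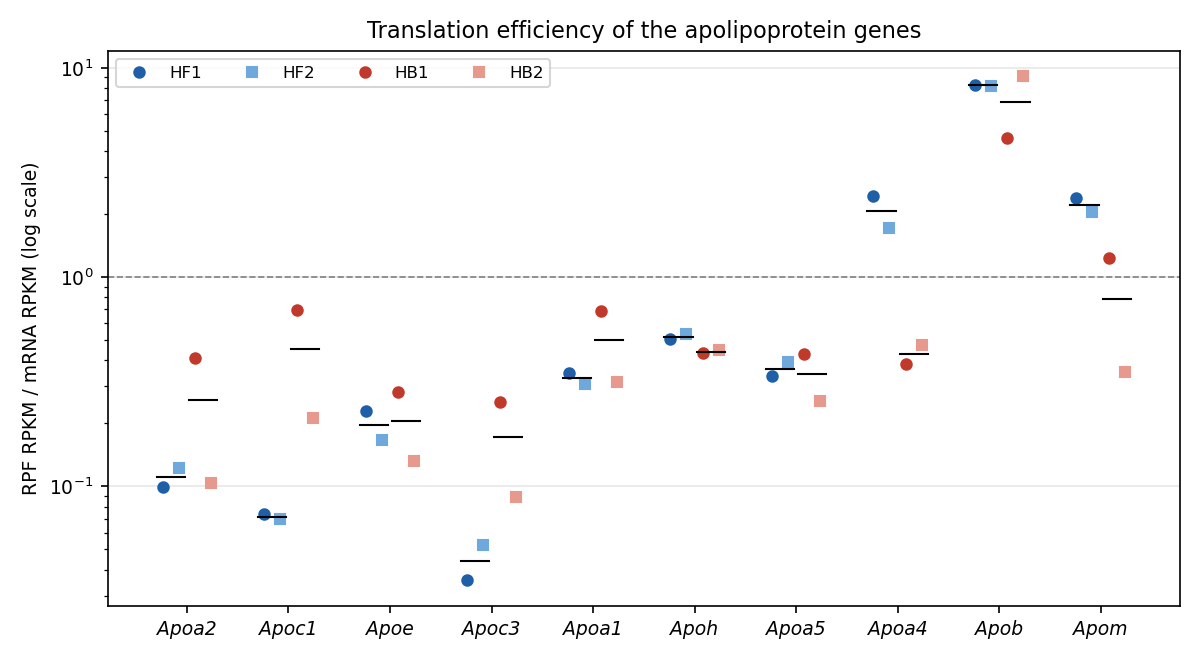
TE (RPF RPKM divided by mRNA RPKM, log axis) of the 10 genes in each pair of libraries with the same group and number, in the order of mRNA level; black bars are group means and the dashed line marks equal values. Apoa4 lies lower in both HB pairs, and HB1 lies highest for Apoa2, Apoc1, Apoe, Apoc3, Apoa1 and Apoa5.

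Apoa4 TE fell in the HB group and was the one TE among the 10 to pass the thresholds of the study, a log2 difference beyond 2 with an unadjusted p under 0.05. Over 9455 genes tested with limma, 4.6% passed as lower in HB and 1.49% as higher. The ratio was 2.43 in HF1 and 1.71 in HF2, and 0.38 in HB1 and 0.47 in HB2. Both HB pairs were far below both HF pairs. The match of RNA-seq and Ribo-seq libraries by number is not known to be by animal, and with the numbers crossed the ratios were 3.82 and 1.09 in the HF group and 0.35 and 0.52 in the HB group, so that the HF pairs lay further apart and the groups still did not overlap. The log2 difference was -2.26 (SE 0.57, limma adjusted p = 0.33), the 416th lowest of 9455, and was made of higher mRNA and lower RPF values in about equal parts, 1.21 and -1.04. With HF1 left out it was -2.001 (SE 1.10) and with HF2 left out -2.51 (SE 1.07), and neither passed the threshold of p. In a model of both assays with an interaction term it was -2.26 (SE 0.59, adjusted p = 0.15), and with crossed numbers the SE was 0.76 (adjusted p = 0.36). With a common sum it was -3.08.

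Apoc1 stood at the other end. Its TE was 0.073 in HF1 and 0.070 in HF2, against 0.70 in HB1 and 0.21 in HB2. Both HB pairs were higher, and HB1 was 3.28 times HB2. With the numbers crossed the ratios were 0.065 and 0.079 in the HF group and 0.46 and 0.32 in the HB group, so that the HB pairs lay closer together. The log2 difference was 2.42 (SE 1.00, limma adjusted p = 0.41), the 87th highest of 9455, and missed the threshold of p. Without HB2 it was 3.28 and passed, without HB1 it was 1.56, and with a common sum it was 1.59. None of the 10 genes passed as higher in TE, and none had an unadjusted p under 0.05 in that direction. However, voom on recovered reads (adjusted p = 0.032) and the interaction model (adjusted p = 0.13) each called Apoc1 higher, where 3.98% and 1.62% of all genes were. Apoc3 TE moved the same way, from 0.035 and 0.052 in HF1 and HF2 to 0.25 in HB1 and 0.089 in HB2, with a log2 difference of 1.80 (SE 1.14, adjusted p = 0.55), or 0.97 with a common sum. It was 2.55 and passed without HB2, and was 1.04 without HB1.

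Apom TE was 2.39 in HF1 and 2.04 in HF2, against 1.23 in HB1 and 0.35 in HB2. Both HB pairs were lower, but the HB2 value rested on 2 RPF reads. The log2 difference of -1.69 had a 95% confidence interval from -3.44 to 0.06. It was -2.56 without HB1 and -2.49 with a common sum, both past the thresholds, and -0.81 without HB2. For the other 6 genes the log2 TE differences ran from -0.35 (Apob) to 0.91 (Apoa2), each with an interval that included 0. Apob TE was 8.32 and 8.22 in HF1 and HF2, 4.62 in HB1 and 9.14 in HB2. Over all 10 genes, both HB pairs lay above both HF pairs for 2 (14% of all genes) and below for 3 (31.7% of all genes), and the median difference was -0.08 against -0.35 over all genes.

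For 8 of the 10 genes HB1 was the library with the highest RPF, and for Apoa4 and Apob it was the library with the lowest. Differences from the HF group went with the length of the transcript in both HB libraries. Among 2691 protein-coding genes with at least 100 Ribo-seq reads, the rank correlation across genes between length and the RPF log2 ratio to the HF mean was -0.40 in HB1 and -0.21 in HB2, and for mRNA it was -0.26 and -0.49. The HF libraries, each set against the HF mean, gave 0.11 in HF1 and -0.11 in HF2 for RPF, and 0.14 and -0.14 for mRNA. These genes share libraries, and the values are descriptions. In genes under 700 bases, the class of Apoa2, Apoc1 and Apoc3, the median RPF ratio was 0.50 in HB1 and -0.01 in HB2, and the median mRNA ratio was -0.16 and 0.42. In genes of 3000 bases or more, the class of Apob, the median RPF ratio was -0.49 in HB1 and -0.48 in HB2. The median mRNA ratio of that class was 0.055 in HB1 and -0.33 in HB2. In HB1 the mRNA medians did not run in order of length, since they were 0.47 from 700 to 1500 bases and 0.44 from 1500 to 3000. Erythroid markers, mostly the short globin mRNAs, summed to 2559 RPKM of RPF in HB1 against 381 to 1109 in the other libraries, and to 2249 RPKM of mRNA in HB2 against 523 to 738. The part of length, or of blood cells, in the results for Apoc1 and Apoc3 was not tested. Apoa4, at 1666 bases, belongs to a class whose median RPF ratio was -0.18 in HB1 and -0.24 in HB2 and whose median mRNA ratio was 0.44 and 0.21. The part of length in the Apoa4 results was not tested either.

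**Figure D4:**
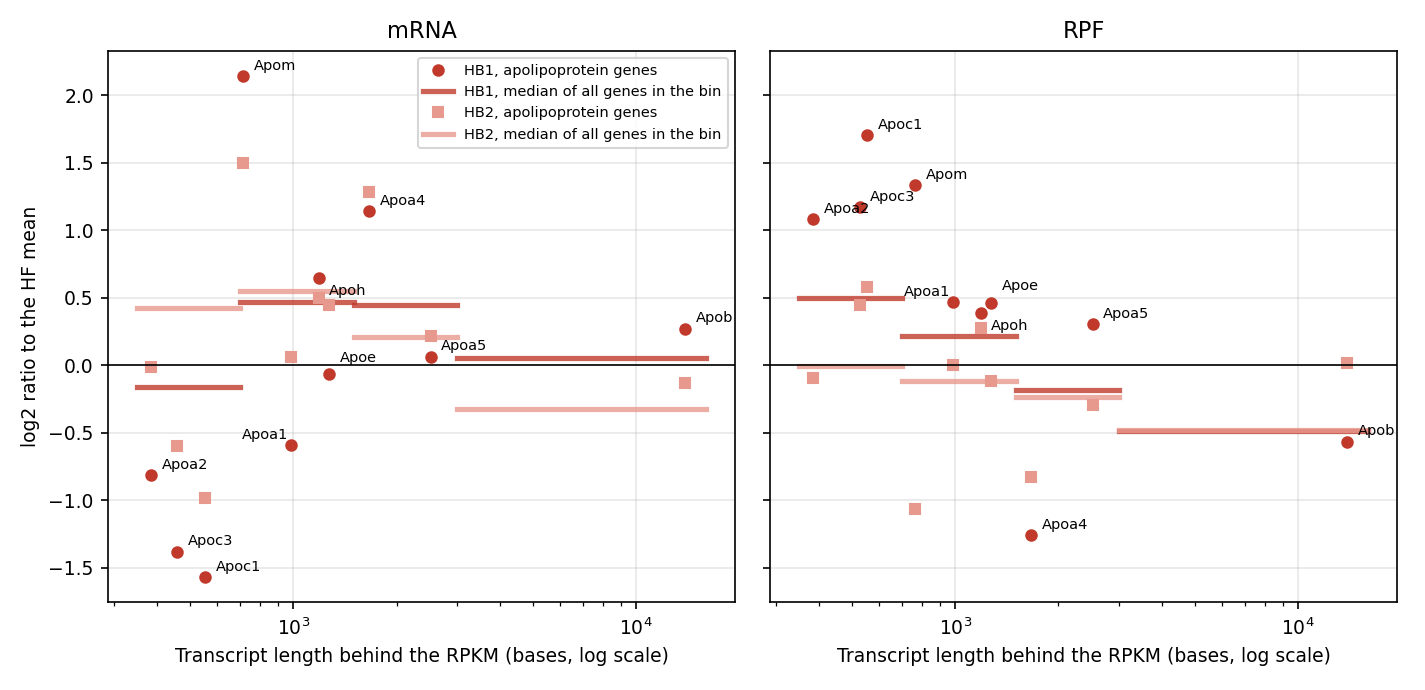
Log2 ratio of HB1 (dark red) and HB2 (light red) to the mean of the HF libraries against the transcript length behind the RPKM, for mRNA (left) and RPF (right); points are the 10 genes and horizontal bars are medians of all protein-coding genes with at least 100 Ribo-seq reads in each class of length. Apoc1 and Apoc3 lie below the bars in mRNA and above them in RPF, and Apoa4 lies above in mRNA and below in RPF.

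Among 20 other apolipoproteins and their relatives, 15 passed the filter on low values in RNA-seq, and 1 was called higher and none lower, against 2.3% and 6.56% of all genes. It was Saa2, an acute-phase apolipoprotein of HDL, with 18.0 and 19.8 RPKM in HF1 and HF2 and 39.1 and 52.6 in HB1 and HB2 (log2 difference 1.22, SE 0.26, limma adjusted p = 0.011). In this list none was called in RPF (16 tested) or in TE (15 tested). The median log2 differences were 0.17 in mRNA, -0.29 in RPF and -0.55 in TE.

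Of the genes for assembly and secretion of lipoproteins, none of 17 was called in mRNA and none of 18 in RPF. In TE 1 of 17 was called lower, where 4.6% of all genes were, namely Pltp, the phospholipid transfer protein, which loads lipid onto particles in the cell and in plasma. Its mRNA was higher in the HB libraries, at 73.2 and 57.9 RPKM against 36.6 and 27.7, and its RPF lower, at 25.8 and 7.80 against 40.0 and 33.5. The log2 TE difference was -2.30 (SE 0.74, adjusted p = 0.36). Of 11 genes that remodel lipoproteins in plasma, 1 mRNA was called lower, where 6.56% of all genes were, that of Angptl8, an inhibitor of lipoprotein lipase that is induced by feeding. It had 153.7 and 142.6 RPKM in HF1 and HF2 and 39.5 and 39.0 in HB1 and HB2, a log2 difference of -1.89 (SE 0.25, adjusted p = 0.0052). None of these 11 was called in RPF, and Pltp, which is in this list too, was the one called in TE.

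Among receptors and efflux genes, Stab1, a scavenger receptor of sinusoidal endothelium, was called lower in mRNA, with 31.2 and 24.1 RPKM in HF1 and HF2 against 6.41 and 12.3 in HB1 and HB2 (log2 difference -1.52, SE 0.32, limma adjusted p = 0.010). Its relative Stab2 was the one of 14 called in RPF, as lower (-1.25), where 7.86% of all genes were. The endothelial marker list, to which Stab2 belongs, summed to 186.8 and 166.9 RPKM of RPF in HF1 and HF2 and to 149.3 and 89.7 in HB1 and HB2, with 2 of its 9 genes called lower. In mRNA it summed to 90.7 and 100.5 against 84.8 and 98.0, with none of the 9 called. The part of endothelial cells in the Stab1 and Stab2 results was not tested. Of 25 transcription factors known to act on apolipoprotein genes, none was called higher in mRNA and 2 were called lower, a share near the 6.56% of all genes called lower, and their median log2 difference was -0.57. The 2 were Nr1h4, the bile acid receptor FXR, at 224 and 176 against 47.2 and 63.6 RPKM (log2 difference -1.84, adjusted p = 0.0053), and Mlxipl, the glucose-responsive factor ChREBP, at 434 and 504 against 131.8 and 165.5 (-1.66, adjusted p = 0.0056). Foxo1, a factor restrained by insulin, was the one of 25 called in RPF, as lower (-1.45), against 7.86% of all genes, and none of the 25 was called in TE.

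As comparators, 24 abundant secreted liver proteins such as albumin and transthyretin were all tested, and none was called in mRNA, RPF or TE. With an adjusted p under 0.05 in limma, 4 were higher and 1 lower in mRNA, against 5.01% and 12.7% of all genes, and none in RPF or TE. Their median log2 differences were 0.51 in mRNA, 0.08 in RPF and -0.40 in TE, against 0.10, 0.20 and -0.08 for the apolipoproteins. The medians over all genes tested were -0.19, -0.43 and -0.35.

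The pattern most like that of Apoa4 over the 8 libraries was that of Cyp4a12a, a fatty acid hydroxylase, followed by Dpm1, a subunit of dolichol-phosphate mannose synthase, and Msra, a methionine sulfoxide reductase. Likeness was the Euclidean distance between log2 values centred on the HF mean of each assay, 0.95, 0.96 and 0.98, among 3326 genes with a mean of at least 10 RPKM in both assays. Cyp4a12a had 36.8 and 24.6 RPKM of mRNA in HF1 and HF2 and 70.5 and 82.9 in HB1 and HB2, and 46.8 and 12.9 of RPF in HF1 and HF2 and 17.7 and 11.6 in HB1 and HB2. It was thus higher in mRNA in both HB libraries, and in RPF it shared with Apoa4 the high HF1 value.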

How the data were processed

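The authors mapped reads with FANSe2 and turned them into RPKM, and each library has a deposited RPKM table of its own. The submitters' processing notes name mm10 and edgeR. Whether RPF were counted over coding sequence is not given in the sources used here. The RPKM steps of 1 read gave whole reads (96.0% to 96.1% of RNA-seq values, 96.6% to 97.6% of Ribo-seq values), library totals and gene lengths. A gene's values counted as whole where 1 integer length put all its libraries within 1e-06 of a read plus 1e-08 per read (Ribo-seq) or within 1e-05 plus 6e-07 per read and under 0.15 (RNA-seq). Apoa2 and Apoe had too many RNA-seq reads for this, and their Ribo-seq lengths were used.

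The main test was limma 3.58.1 (R 4.3.3, eBayes with trend, two-sided) on log2(RPKM + 1), for genes whose RPKM averaged 1 or more over the 4 libraries of the assay. Group was the sole factor, and Benjamini-Hochberg adjustment ran over all genes tested. Fold changes on this scale understate low genes. TE was tested as log2 of the ratio of RPF RPKM + 1 to mRNA RPKM + 1 between libraries of the same group and number, and the TE values printed carry no added constant. Call thresholds are those of the study.

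All 10 genes are described. From the other lists, called genes with the 3 largest differences per list and measure are named. The genes and lists were chosen with earlier results of these data known. The steps were tested on simulated data. Results were recomputed with no filter, a mean of at least 5, a pseudocount of 0.1, a common sum, a common median, a common sum without the 10 genes and the top 100, no trend, a replicate block, an adjusted p, leaving out each library and a TE interaction model. Scaling to protein-coding reads, voom on recovered reads, crossed blocks and crossed TE numbers were chosen after seeing the data. The 4 RNA-seq entries that repeat a symbol were left out. Results for some genes that the naming rule selects are not reported here.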

Additional observations from a re-analysis of the deposited data

How the results depend on the processing

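Depth limits the Apom RPF, which rests on 2 to 29 reads per library. The limit of 2 libraries per group applies to every result, and a fit that leaves out a library has 1 library in a group. Of the values of single genes, 35 of 40 mRNA, 29 of 40 RPF and 29 of 40 TE values kept their direction and their side of the thresholds when 1 library was left out. Under the other settings, 105 of 110 mRNA, 83 of 100 RPF and 105 of 120 TE values did. Apom was called higher in mRNA under every setting tried. The cause of the changes below was not tested.

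The deviations of same-numbered HF and HB libraries correlated at -0.10 in mRNA and -0.01 in RPF. Those of the 2 assays correlated at -0.002 in HF and -0.08 in HB. Counting error in the shallow Ribo-seq libraries lowers such correlations, so they cannot show whether libraries of the same number share an animal. With a replicate block, 2 mRNAs were called higher (Apoa4, Apom; 4.66% of all genes), 1 lower (Apoc1; 11.5%) and 1 RPF lower (Apoa4; 5.76%), and the TE calls did not change. A crossed block left the mRNA calls at 1 higher and 0 lower (4.44% and 12.2% of all genes).

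The mRNA count of higher calls was 2 with a common median (5.05% of all genes) and with an adjusted p (5.01%), and that of lower calls was 1 (Apoc1) with a common sum (7.16%) and with an adjusted p (12.7%). Leaving out a library gave 0 to 2 lower mRNA calls, 0 to 3 higher and 0 to 1 lower RPF calls, and 0 to 2 higher and 0 to 2 lower TE calls. The shares of all genes called in these fits ran from 5.14% to 9.81% for lower mRNA, 0.51% to 4.68% for higher and 6.45% to 23.3% for lower RPF, and 0.67% to 4.81% for higher and 1.3% to 13.4% for lower TE. RPF calls were 2 higher (Apoc1, Apoc3) with a common median (3.12% of all genes) and 1 higher (Apoc1) with a common sum without the 10 genes and the top 100 (1.64%), with protein-coding scaling (1.90%) and with voom (3.83%). They were 2 lower (Apoa4, Apob) with a common sum, under which 23.8% of all genes were called lower, and 1 lower (Apoa4) with voom (6.10% of all genes). TE calls were 1 higher (Apoc1) with no filter, a common median, a common sum without the 10 genes and the top 100, no trend, protein-coding scaling, voom, the interaction model and crossed numbers, under which 1.16% to 3.98% of all genes were. They were 2 lower (Apoa4, Apom) with a common sum (14.1% of all genes) and 0 lower with an adjusted p.

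A common sum, which counts the short noncoding RNAs of the HB Ribo-seq libraries, lowered the median RPF difference of all genes from -0.43 to -1.16 and a common median raised it to -0.10. With the common sum the RPF differences turned to -0.64 (Apoa1), -0.38 (Apoa2), -0.87 (Apoa5), -0.068 (Apoc3), -0.70 (Apoe), -0.54 (Apoh) and -0.71 (Apom), and the TE difference of Apoa1 to -0.33. With the common median, Apoa1 mRNA became 0.0051, Apob RPF 0.048 and Apoe TE 0.059. Apoe TE was also 0.045 with a common sum without the 10 genes and the top 100, 0.15 with protein-coding scaling and 0.0071 with voom, and Apoa5 TE was 0.029 with protein-coding scaling.

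Leaving out a library turned the sign of some small differences. The ranges were -0.59 to 0.058 (Apoa1), -0.13 to 0.27 (Apob) and -0.069 to 0.45 (Apoe) in mRNA. In RPF they were -0.095 to 1.08 (Apoa2), -0.30 to 0.30 (Apoa5), -0.57 to 0.012 (Apob), -0.12 to 0.46 (Apoe) and -1.07 to 1.34 (Apom). In TE they were -0.056 to 1.06 (Apoa1), -0.084 to 1.90 (Apoa2), -0.51 to 0.24 (Apoa5), -0.84 to 0.14 (Apob) and -0.56 to 0.53 (Apoe).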
